A study of Sus scrofa with 10 samples.

Results

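The insulin-like growth factor (IGF) genes described here are the ligands IGF1 and IGF2, the signalling receptor IGF1R, and the binding proteins IGFBP2, IGFBP3, IGFBP4, IGFBP5 and IGFBP6. Members were taken by gene symbol, through probe sets that the array annotation gives exactly 1 symbol. A probe set is a group of short probes on the array that together read 1 transcript. Of the 8 genes, 6 had such a probe set, 22 probe sets in all, among 6765 genes and 23999 probe sets tested. IGFBP3 and IGFBP4 are not analysed here. Each gene was read from its brightest probe set, that with the highest mean over all arrays, and its other probe sets are given beside it. All 22 carry the same symbol in the RefSeq gene table for Sscrofa11.1.

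Total RNA of aortic valve leaflets from female swine on standard chow was hybridised to Affymetrix Porcine Genome arrays, 1 array a sample. The adult RFH group held 4 arrays of 2-year-old Rapacz Familial Hypercholesterolemic (RFH) swine, a breed with inherited high blood cholesterol. The juvenile RFH group held 3 arrays of 3-month-old swine of that breed. The juvenile WT group held 3 arrays of 3-month-old Rapacz Wisconsin Miniature Swine, labelled wild type (RFH -/-). The design sets adult RFH against juvenile RFH, and juvenile RFH against juvenile WT, so both comparisons share the juvenile RFH arrays. In the first, age and time lived with the genotype cannot be told apart, and in the second, genotype and breed line cannot be told apart. Adult RFH was also set against juvenile WT, where age and genotype differ together, to order the 3 group levels of each gene. Its calls are given beside those of the study's own comparisons.

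IGF1 and IGF2 are secreted growth factors that signal through the receptor tyrosine kinase IGF1R to the PI3K-AKT-mTOR and RAS-MAPK branches. IGF binding proteins hold the ligands in the extracellular space, can block or prolong their access to the receptor, and release them when proteases cut the binding protein. IGFBP6 binds IGF2 in preference to IGF1, and IGFBP5 also binds extracellular matrix. In connective tissues such as valve leaflets, interstitial cells and fibroblasts are known sources of both ligands and binding proteins.

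Values are log2 expression values, so a difference of 1 is a doubling. A gene was called when limma's moderated test gave a Benjamini-Hochberg adjusted p under 0.05 over all 23999 probe sets. Array medians lay between 6.96 and 7.03. Leaflet connective tissue markers, those of interstitial cells and fibroblasts, differed widely in brightness. The intermediate filament gene VIM, the brightest, averaged 14.33 in adult RFH leaflets, 14.39 in juvenile RFH leaflets and 14.45 in juvenile WT leaflets. The collagen gene COL3A1, the dimmest, averaged 6.66 in adult RFH leaflets, 7.34 in juvenile RFH leaflets and 7.33 in juvenile WT leaflets. Juvenile RFH 2 stood apart in cardiac muscle markers, with a list mean of 9.52 against 5.10 to 5.79 on the other 9 arrays. Juvenile RFH 3 came next at 5.79, against 5.10 to 5.45 on the remaining arrays. The cardiac gene ACTC1 read 10.89 on juvenile RFH 2, 5.91 on juvenile RFH 3 and 3.67 to 4.18 on the remaining arrays. The spread was widest in adult RFH, where the median SD of a probe set was 0.188, against 0.125 in juvenile RFH and 0.0949 in juvenile WT. The fit shares 1 spread per probe set over the 3 groups, so intervals between the juvenile groups take in the adult RFH spread. In these bulk samples, fewer cells of a type and less RNA per cell cannot be told apart.

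In adult RFH leaflets the binding proteins IGFBP6 and IGFBP2 rose relative to juvenile RFH leaflets, by 1.15 ± 0.10 and 0.84 ± 0.25 on the log2 scale (difference ± SE), while the ligands and the receptor gave no call. Thus 2 of 6 IGF genes rose and 0 fell. Over all genes, 19.3% were called in this comparison, 11.4% higher and 7.85% lower in adult RFH. The median change of the 6 genes was 0.14, beside 0.02 over all genes. Of the 22 IGF probe sets, 3 were called, beside 16.8% of all probe sets. Both called genes kept adult and juvenile RFH arrays fully apart, as 29.9% of all genes did.

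Between juvenile RFH and juvenile WT leaflets none of the 6 IGF genes was called by limma, where 0.133% of all genes, 9 of 6765, were called. At an unadjusted p under 0.05, IGF1, IGF1R and IGFBP2 passed, 3 of 6 genes beside 15.1% of all genes. Arrays of the 2 groups did not overlap for IGF1R, IGFBP2 and IGFBP5, a separation that 35.8% of all genes showed. The median change of the 6 genes was -0.06, beside 0.07 over all genes.

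Adult RFH set against juvenile WT gave 4 calls of 6: IGFBP2 and IGFBP6 were higher and IGF1R and IGFBP5 lower in adult RFH, where 33.3% of all genes were called. For the same 4 genes the arrays of both groups did not overlap, as for 44% of all genes.

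**Figure D1:**
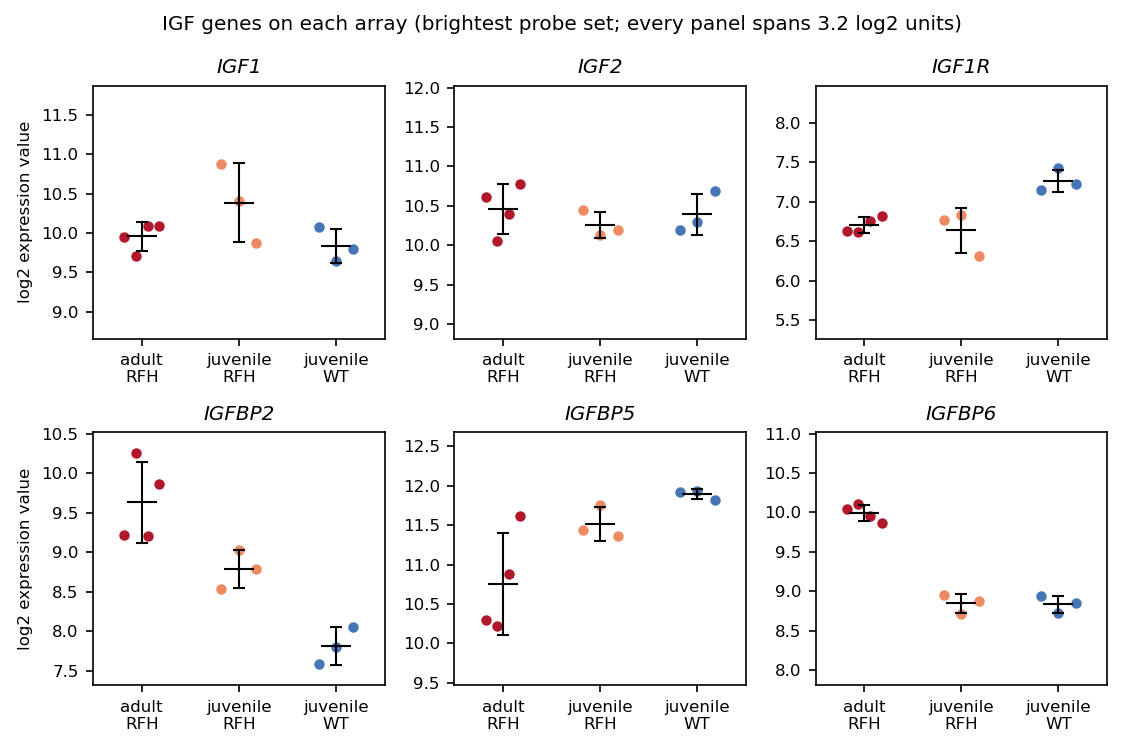
Log2 expression value (vertical axis) of the brightest probe set of each IGF gene on each array (points), with group mean and SD (bars), for adult RFH (n = 4), juvenile RFH (n = 3) and juvenile WT (n = 3). Adult RFH arrays lie above both juvenile groups for IGFBP6 and IGFBP2, and juvenile WT lies above both RFH groups for IGF1R.

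The ligand IGF1, the main growth hormone-induced IGF, read 9.95, 9.70, 10.09 and 10.09 on the adult RFH arrays, 10.88, 10.41 and 9.87 on the juvenile RFH arrays, and 10.07, 9.65 and 9.79 on the juvenile WT arrays. Juvenile RFH 1 and 2 were the highest of the 10 arrays, and juvenile RFH 3 lay among the other groups, so all groups overlapped. Group means were 9.96 ± 0.18 in adult RFH leaflets, 10.39 ± 0.51 in juvenile RFH leaflets and 9.84 ± 0.22 in juvenile WT leaflets (SD). The adult RFH minus juvenile RFH difference was -0.43 (95% interval -0.89 to 0.04, limma adjusted p = 0.191). Without juvenile RFH 3 it was -0.69 and was called (adjusted p = 0.0418). Juvenile RFH minus juvenile WT was 0.55 (0.05 to 1.04), with an unadjusted p under 0.05 and an adjusted p of 0.345 by limma.

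A second bright IGF1 probe set read 9.39, 9.29, 9.79 and 9.57 in adult RFH, 10.13, 9.84 and 9.21 in juvenile RFH, and 9.34, 8.94 and 8.79 in juvenile WT. It repeated the order of the arrays within juvenile RFH. Over all 3 IGF1 probe sets, the adult minus juvenile RFH differences ran from -0.43 to -0.09, and the juvenile RFH minus WT differences from 0.17 to 0.70. None of these was called, and 2 of the 3 had an unadjusted p under 0.05 in the juvenile comparison.

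The ligand IGF2, an imprinted growth factor expressed from the paternal allele, read 10.61, 10.06, 10.40 and 10.78 on the adult RFH arrays, 10.44, 10.13 and 10.19 on the juvenile RFH arrays, and 10.20, 10.30 and 10.69 on the juvenile WT arrays. The 3 groups lay over one another, with means of 10.46 ± 0.31, 10.26 ± 0.16 and 10.40 ± 0.26 (SD) in that order. Adult RFH minus juvenile RFH was 0.21 (95% interval -0.19 to 0.60, limma adjusted p = 0.472). Juvenile RFH minus juvenile WT was -0.14 (-0.56 to 0.28, adjusted p = 0.824).

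IGF2 was read by 13 probe sets, 6 of them bright, with means of 9.54 to 10.38, and 7 below the median of all probe sets, with means of 4.68 to 6.73. The brightest is of the type that Affymetrix marks as open to cross-hybridisation. None of the 13 was called in either of the study's comparisons. Their differences ran from -0.22 to 0.41 for adult RFH minus juvenile RFH, 10 of them positive, and from -0.30 to 0.23 for juvenile RFH minus juvenile WT, 5 of them positive. Centred on their own means and averaged, the 6 bright probe sets gave 0.14, -0.46, 0.02 and 0.42 in adult RFH, 0.02, -0.20 and -0.11 in juvenile RFH, and -0.18, -0.04 and 0.39 in juvenile WT. Adult RFH 4 and juvenile WT 3 were thus the highest and adult RFH 2 the lowest. All 6 lay above their own mean on adult RFH 4 (0.23 to 0.60) and on juvenile WT 3 (0.28 to 0.47), and below it on adult RFH 2 (-0.93 to -0.20).

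**Figure D2:**
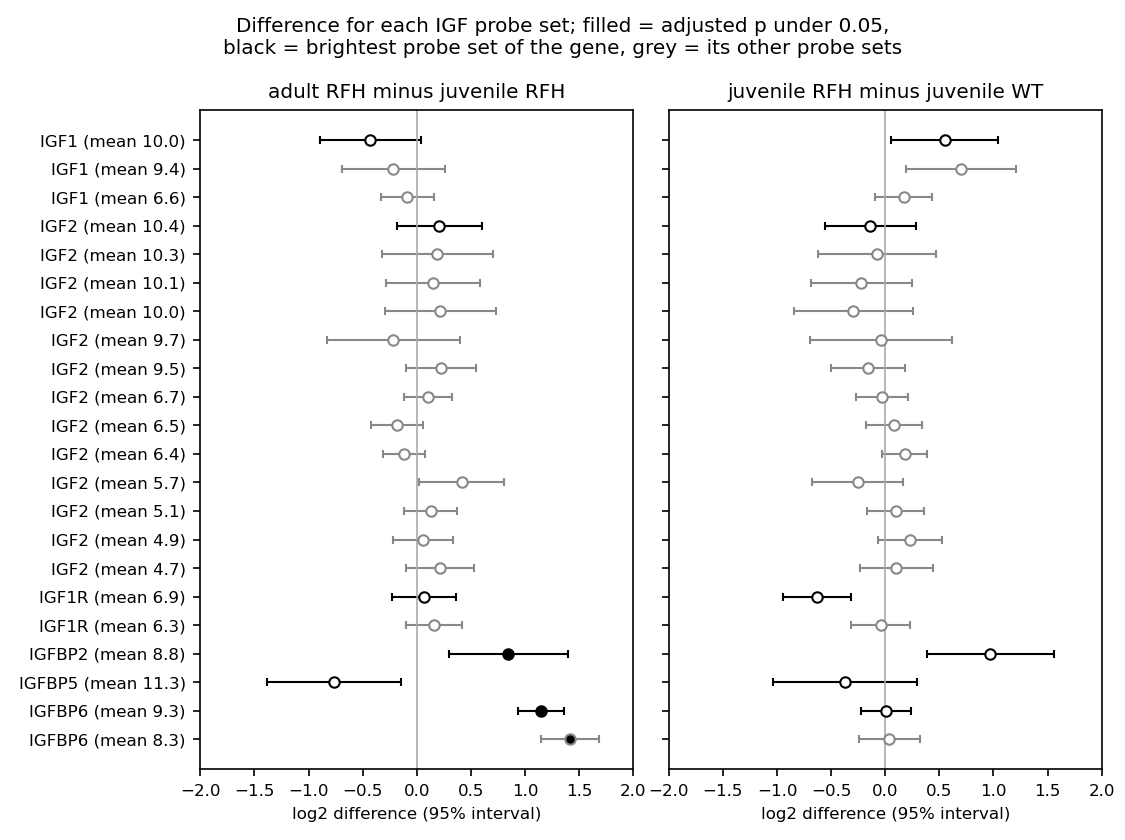
Log2 difference with its 95% interval (horizontal axis) for each of the 22 IGF probe sets, adult RFH minus juvenile RFH on the left and juvenile RFH minus juvenile WT on the right, with filled points for adjusted p under 0.05. Only IGFBP2 and both IGFBP6 probe sets are filled, all on the left. The 13 IGF2 probe sets lie between -0.22 and 0.41 on the left.

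The receptor IGF1R was dim, with a mean of 6.85 over the 10 arrays, below the median of all probe sets. It read 6.63, 6.62, 6.75 and 6.83 on the adult RFH arrays, 6.77, 6.83 and 6.31 on the juvenile RFH arrays, and 7.15, 7.42 and 7.22 on the juvenile WT arrays. All 7 RFH arrays lay below all 3 WT arrays, while adult and juvenile RFH overlapped. Means were 6.71 ± 0.10 in adult RFH leaflets, 6.64 ± 0.28 in juvenile RFH leaflets and 7.27 ± 0.14 in juvenile WT leaflets (SD). Juvenile RFH minus juvenile WT was -0.63 (95% interval -0.94 to -0.31), with an unadjusted p under 0.05 and an adjusted p of 0.123 by limma. Adult RFH minus juvenile WT was -0.56 and was called (adjusted p = 0.0106). That call was lost without juvenile WT 2 (-0.48, adjusted p = 0.0539). Adult RFH minus juvenile RFH was 0.07 (-0.23 to 0.36, adjusted p = 0.775).

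The other IGF1R probe set did not share this order. It read 6.20, 6.27, 6.59 and 6.45 in adult RFH, 6.28, 6.34 and 6.02 in juvenile RFH, and 6.29, 6.25 and 6.23 in juvenile WT, with all groups overlapping. Its differences were 0.16 for adult RFH minus juvenile RFH (adjusted p = 0.390), -0.04 for juvenile RFH minus juvenile WT (adjusted p = 0.931) and 0.12 for adult RFH minus juvenile WT (adjusted p = 0.492). With the mean of both probe sets, adult RFH minus juvenile WT was -0.22 (adjusted p = 0.183).

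IGFBP2, a binding protein of both ligands that circulates and also attaches to cell surfaces, read 9.22, 10.25, 9.20 and 9.86 on the adult RFH arrays. It read 8.54, 9.03 and 8.79 on the juvenile RFH arrays, and 7.58, 7.80 and 8.06 on the juvenile WT arrays. The 3 groups formed 3 steps with no overlap, adult RFH highest and juvenile WT lowest. Means were 9.63 ± 0.51, 8.79 ± 0.25 and 7.82 ± 0.24 (SD) in that order. IGFBP2 rose by 0.84 in adult RFH relative to juvenile RFH, a 1.80-fold difference (SE 0.25, 95% interval 0.30 to 1.39, limma adjusted p = 0.041). The juvenile RFH minus juvenile WT difference was 0.97 or 1.96-fold (SE 0.27, 0.38 to 1.56), and did not pass over all probe sets (adjusted p = 0.178). Adult RFH exceeded juvenile WT 3.52-fold, a difference of 1.82 (SE 0.25, adjusted p = 0.000775).

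The IGFBP2 call between adult and juvenile RFH lay close to the threshold. It held without adult RFH 1 or without adult RFH 3, and was lost without any 1 of the other 8 arrays. Leaving out adult RFH 2, the highest array, gave 0.64 (adjusted p = 0.0664), and leaving out adult RFH 4 gave 0.77 (adjusted p = 0.0772). Without juvenile RFH 1, 2 or 3 the adjusted p was 0.15, 0.0532 or 0.109, and without juvenile WT 1, 2 or 3 it was 0.0548, 0.0635 or 0.0548. The difference stayed positive in each case, between 0.64 and 0.99. With only the 2 groups compared in the fit, the adjusted p was 0.0848 between adult and juvenile RFH, and 0.0277 between juvenile RFH and juvenile WT. IGFBP2 has 1 probe set, so there is no second reading of it.

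IGFBP5, the matrix-binding member, read 10.30, 10.22, 10.88 and 11.61 on the adult RFH arrays, 11.44, 11.76 and 11.36 on the juvenile RFH arrays, and 11.92, 11.93 and 11.82 on the juvenile WT arrays. Adult RFH 1, 2 and 3 were the lowest arrays, while adult RFH 4 lay among juvenile RFH. Means were 10.75 ± 0.64 in adult RFH leaflets, 11.52 ± 0.21 in juvenile RFH leaflets and 11.89 ± 0.06 in juvenile WT leaflets (SD). Adult RFH minus juvenile RFH was -0.77 (SE 0.28, 95% interval -1.39 to -0.14) and was not called (limma adjusted p = 0.0879). Without adult RFH 4 it was -1.05 and was called (adjusted p = 0.00392). Juvenile RFH minus juvenile WT was -0.37 (-1.03 to 0.29, adjusted p = 0.668). This interval takes in the wide adult RFH spread, while the arrays of the juvenile groups did not overlap. The juvenile difference was called under 0 of 22 alternatives. IGFBP5 fell by 1.14 in adult RFH relative to juvenile WT (SE 0.28, adjusted p = 0.0126). IGFBP2 and IGFBP5 are neighbouring genes on 1 chromosome in the RefSeq table for Sscrofa11.1, and their group means ran in opposite orders.

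IGFBP6, the IGF2-preferring binding protein, read 10.04, 10.11, 9.96 and 9.87 on the adult RFH arrays. It read 8.95, 8.72 and 8.88 on the juvenile RFH arrays, and 8.94, 8.72 and 8.85 on the juvenile WT arrays. The juvenile groups lay on top of one another and every adult array lay above both. Means were 9.995 ± 0.103 in adult RFH leaflets, 8.85 ± 0.12 in juvenile RFH leaflets and 8.84 ± 0.11 in juvenile WT leaflets (SD). IGFBP6 rose 2.21-fold in adult RFH relative to juvenile RFH, a log2 difference of 1.15 (SE 0.10, 95% interval 0.93 to 1.36, limma adjusted p = 6.62e-05). Between the juvenile groups, RFH minus WT, the difference was 0.01 (-0.22 to 0.24, adjusted p = 0.982). Adult RFH exceeded juvenile WT 2.23-fold (adjusted p = 5.56e-05).

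The second IGFBP6 probe set gave the same order, with 9.36, 9.28, 8.95 and 9.03 in adult RFH, 7.78, 7.62 and 7.81 in juvenile RFH, and 7.76, 7.53 and 7.80 in juvenile WT. It rose by 1.42 in adult RFH relative to juvenile RFH (SE 0.12, limma adjusted p = 6.57e-05), and juvenile RFH minus juvenile WT was 0.04 (adjusted p = 0.941). The IGFBP6 call between adult and juvenile RFH held under all 22 alternatives tried, with differences of 1.08 to 1.42.

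Juvenile RFH 2, the array highest in cardiac muscle markers, was left out, while juvenile RFH 3, the next highest, stayed in. Adult RFH minus juvenile RFH was then 1.08 for IGFBP6 (adjusted p = 0.000544), 0.97 for IGFBP2 (adjusted p = 0.0532) and -0.64 for IGFBP5 (adjusted p = 0.229). The same setting gave -0.42 for IGF1, 0.14 for IGF2 and 0.16 for IGF1R, none called. Then juvenile RFH minus juvenile WT was 0.85 for IGFBP2 and -0.72 for IGF1R, with adjusted p-values of 0.497 and 0.218.

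Markers of other cell types were read on the same arrays, and several lists differed between the groups. The macrophage list averaged 11.22, 11.35, 10.69 and 10.60 on the adult RFH arrays, 10.13, 10.12 and 10.11 on the juvenile RFH arrays, and 9.76, 9.62 and 9.77 on the juvenile WT arrays. Its 3 groups did not overlap, and stood in the order of the IGFBP2 groups. Within adult RFH the order differed, as adult RFH 4 was lowest for the list but above adult RFH 1 and 3 for IGFBP2. Of its 7 measured genes, 5 rose in adult relative to juvenile RFH, beside 11.4% of all genes: CD14, TYROBP, FCER1G, LAPTM5 and C1QA. The difference of the list mean was 0.85 (two-sided exact permutation p = 0.0286, which is the lowest possible with 4 and 3 arrays). Against juvenile WT, juvenile RFH was higher by 0.40 (exact permutation p = 0.1, which is the lowest possible with 3 and 3 arrays). In that comparison 0 of the 7 genes were called, beside 0.133% of all genes, and LAPTM5 alone went the other way (-0.25).

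Interstitial cell and fibroblast markers ran the other way. Their list mean was 11.68, 11.55, 11.88 and 11.95 on the adult RFH arrays, 12.20, 12.10 and 12.16 on the juvenile RFH arrays, and 12.30, 12.29 and 12.22 on the juvenile WT arrays. Of 8 genes measured, COL3A1, PDGFRB and POSTN fell in adult relative to juvenile RFH, and 0 rose. Over all genes, 7.85% fell and 11.4% rose in that comparison. The adult minus juvenile RFH difference of the mean was -0.39 (exact permutation p = 0.0571). The endothelial list averaged 9.26 to 10.06 in adult RFH leaflets, 9.07 to 9.36 in juvenile RFH leaflets and 8.67 to 9.03 in juvenile WT leaflets. Its group means, 9.81, 9.21 and 8.86, stood in the order of the IGFBP2 groups as well, although adult RFH 3 lay among juvenile RFH. Of its 9 genes VWF, TIE1 and THBD rose and ERG fell in adult relative to juvenile RFH, and 5 were not called. KDR was dim, with group means of 3.86 to 3.95. The adult minus juvenile RFH difference of the endothelial mean was 0.60 (exact permutation p = 0.0857).

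Other lists and technical controls were read in the same way. The adipocyte list averaged 6.09 to 7.15 in adult RFH leaflets, 5.29 to 5.38 in juvenile RFH leaflets and 5.34 to 5.45 in juvenile WT leaflets. FABP4 and LPL, 2 of 4 genes, rose in adult relative to juvenile RFH, where 11.4% of all genes rose and 7.85% fell. The defining adipocyte gene ADIPOQ averaged 4.20 in adult and 4.08 in juvenile RFH. Erythroid markers averaged 6.28 to 7.24 in adult RFH leaflets, 7.56 to 8.48 in juvenile RFH leaflets and 6.83 to 7.34 in juvenile WT leaflets, and 2 of 3 fell in adult relative to juvenile RFH. In that comparison 1 of 5 smooth muscle genes fell (ACTA2), 1 of 5 chondrocyte genes rose (SOX9) and 1 fell (HAPLN1), and 0 of 7 cardiac and 0 of 6 lymphocyte genes were called. The poly-A spike-in controls averaged 7.66 in adult RFH leaflets, 6.84 in juvenile RFH leaflets and 7.07 in juvenile WT leaflets. The 3 groups did not overlap, at 7.47 to 7.89, 6.83 to 6.85 and 7.01 to 7.12. The exact permutation p was the lowest possible, 0.0286 for adult against juvenile RFH and 0.1 for juvenile RFH against juvenile WT. This technical difference lines up with the groups and cannot be told apart from them. The 3' minus 5' signal of actin, GAPDH and EF1A, a reading of RNA integrity, averaged 2.24 in adult RFH leaflets, 2.25 in juvenile RFH leaflets and 2.09 in juvenile WT leaflets. It was uneven within adult RFH, at 1.75, 2.25, 2.84 and 2.12, with an SD of 0.454 against 0.137 and 0.0935 in the juvenile groups. The part of these measures in the IGFBP2, IGFBP5 and IGFBP6 differences was not tested.

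**Figure D3:**
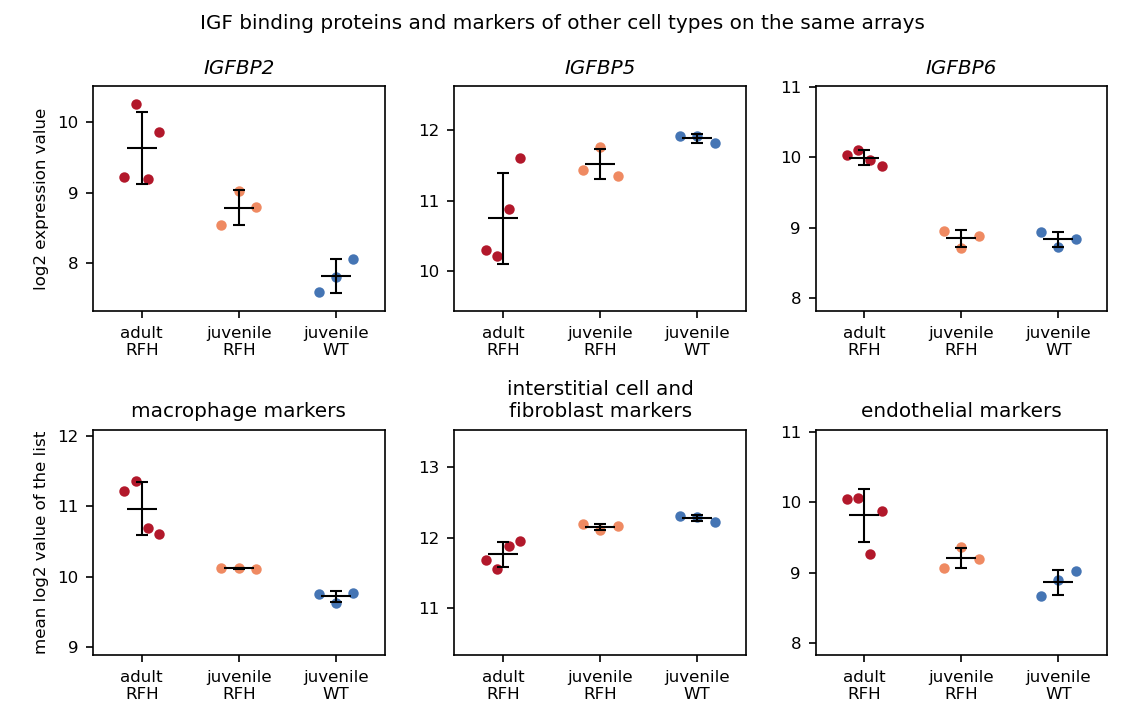
Log2 values on each array (points), with group mean and SD (bars), of the 3 measured IGF binding proteins in the upper row and of 3 marker lists, as list means, in the lower row, for adult RFH (n = 4), juvenile RFH (n = 3) and juvenile WT (n = 3). Group means of both macrophage and endothelial markers stand in the order of IGFBP2. Those of interstitial cell and fibroblast markers stand in the order of IGFBP5, whereas IGFBP6 is level between the juvenile groups. Lists not drawn shared these orders too, lymphocyte markers that of IGFBP2 and chondrocyte markers that of IGFBP5.

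For the 2 IGF genes called between adult and juvenile RFH, the genes with the most similar profile were sought among 6764 others, by the root mean square difference of log2 values over the 10 arrays after centring each gene. IGFBP2 was closest to SMAGP, which encodes a small transmembrane protein of cell-cell contacts, at 0.218. SMAGP averaged 8.57 in adult RFH leaflets, 7.58 in juvenile RFH leaflets and 6.95 in juvenile WT leaflets. Next came ACSL5, a fatty acid activating enzyme, at 0.265, with 9.68 in adult RFH leaflets, 8.77 in juvenile RFH leaflets and 8.13 in juvenile WT leaflets.

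IGFBP6 was closest to METRNL, a secreted protein related to meteorin, at 0.0762. METRNL averaged 10.81 in adult RFH leaflets, 9.65 in juvenile RFH leaflets and 9.60 in juvenile WT leaflets. IRF3, a transcription factor of the interferon response, followed at 0.111, with 10.20 in adult RFH leaflets, 9.19 in juvenile RFH leaflets and 8.96 in juvenile WT leaflets. These genes were picked for their likeness and their levels are descriptions.

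Of 104 other genes listed for the IGF pathway, 50 had a probe set, and between adult and juvenile RFH 6 rose, 5 fell and 39 were not called by limma, beside 19.3% of all genes called. Their median change was 0.03. Between juvenile RFH and juvenile WT, 0 of the 50 were called, beside 0.133% of all genes, and 4 (8%) had an unadjusted p under 0.05, beside 15.1% of all genes.

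The binding protein proteases and their inhibitors held the most calls, 3 rising and 2 falling of 10 measured, with a median change of 0.40. Over all genes, 11.4% rose and 7.85% fell. STC1, a secreted inhibitor of the IGFBP protease PAPPA, read 10.04, 11.25, 9.94 and 11.21 in adult RFH, 8.16, 8.74 and 8.85 in juvenile RFH, and 8.19, 8.31 and 8.20 in juvenile WT. It rose by 2.03 in adult relative to juvenile RFH (SE 0.33, limma adjusted p = 0.00281), and adult and juvenile RFH arrays did not overlap. Its other probe sets, both dimmer, gave 0.80 (adjusted p = 0.1) and 0.03 (adjusted p = 0.890), and the mean of the 3 gave 0.95, still called. PAPPA itself averaged 6.34 in adult RFH and 6.44 in juvenile RFH (adjusted p = 0.531).

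ADAMTS1, a metalloprotease of the ADAMTS family reported to cut binding proteins, read 12.39, 13.49, 13.53 and 13.55 in adult RFH and 11.80, 11.52 and 11.53 in juvenile RFH. It rose by 1.62 (SE 0.26, limma adjusted p = 0.0029), and its second probe set also by 1.62 (adjusted p = 0.00172). CTSD, the lysosomal protease cathepsin D, read 12.19, 13.01, 12.23 and 11.57 in adult RFH and 10.72, 10.72 and 10.63 in juvenile RFH. CTSD rose by 1.56 (SE 0.25, adjusted p = 0.0029). All 3 rising genes of this list kept their call under each of the 22 alternatives.

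Both falling members of that list are extracellular proteases. HTRA1, a serine protease that cuts IGFBP5, averaged 12.69 ± 0.13 in adult RFH and 13.13 ± 0.09 in juvenile RFH (SD), and fell by 0.44 (SE 0.10, limma adjusted p = 0.0137). The call was lost without juvenile RFH 1 (adjusted p = 0.0614), and a dim second probe set gave -0.12 (adjusted p = 0.449). It was lost as well with the mean of both (-0.28, adjusted p = 0.0613). MMP2, a gelatinase, read 11.70, 11.63, 12.85 and 12.55 in adult RFH and 13.03, 13.05 and 13.01 in juvenile RFH, and fell by 0.85 (SE 0.26, adjusted p = 0.0475). The MMP2 call was lost without any 1 array other than adult RFH 3 or 4, at adjusted p-values of 0.0704 to 0.122.

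Among insulin receptor substrates, PI3K and AKT genes, 1 of 10 measured was called, beside 19.3% of all genes. GRB10, an adaptor that restrains insulin and IGF1 receptor signalling, averaged 9.99 ± 0.20 in adult RFH and 9.55 ± 0.08 in juvenile RFH (SD), and rose by 0.44 (SE 0.11, limma adjusted p = 0.0233). Its call was lost without juvenile RFH 1 (adjusted p = 0.0853) and without juvenile RFH 3 (adjusted p = 0.0805), and its dimmer probe set gave 0.12 (adjusted p = 0.591). With the mean of both probe sets the GRB10 call was lost too (0.28, adjusted p = 0.0662). The kinases AKT1 and AKT2 differed by -0.02 and -0.27, and neither was called (adjusted p = 0.905 and 0.126).

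On the mTOR branch 2 of 7 measured genes fell and 0 rose, beside 7.85% of all genes falling and 11.4% rising. AKT1S1, an inhibitory subunit of mTOR complex 1 and AKT substrate, averaged 9.37 ± 0.20 in adult RFH and 9.91 ± 0.06 in juvenile RFH (SD), and fell by 0.53 (SE 0.11, limma adjusted p = 0.0108). SESN1, a stress-induced inhibitor of mTOR complex 1, read 11.36, 10.39, 11.41 and 11.37 in adult RFH and 11.87, 12.20 and 12.20 in juvenile RFH. SESN1 fell by 0.96 (SE 0.23, adjusted p = 0.0191), and its other probe set fell by 1.30 (adjusted p = 0.0046). Without juvenile RFH 2 or 3 the adjusted p of SESN1 was 0.0603 or 0.0735.

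None of the 5 RAS and MAPK genes measured was called, although all 5 had an unadjusted p under 0.05 and a positive difference, beside 34.5% of all genes at that threshold. The smallest p belonged to the adaptor GRB2, which averaged 10.43 ± 0.42 in adult RFH and 9.82 ± 0.06 in juvenile RFH (SD), a difference of 0.61 (SE 0.19, limma adjusted p = 0.0519). GRB2 was called without adult RFH 3 (0.73, adjusted p = 0.0182) and without adult RFH 4 (0.72, adjusted p = 0.0248). Its 2 other probe sets gave 0.16 (adjusted p = 0.363) and 0.04 (adjusted p = 0.841), and the mean of the 3 gave 0.27, not called. Of the 5 other receptors and binding proteins measured, 0 were called, and INS had the smallest p (0.14, adjusted p = 0.300).

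On the growth hormone axis 2 of 8 measured genes rose, beside 11.4% of all genes. Both encode feedback inhibitors of cytokine and growth hormone receptors. SOCS3 read 7.45, 7.08, 6.56 and 6.94 in adult RFH, against 4.50, 4.40 and 4.30 in juvenile RFH, and rose by 2.61 (SE 0.17, limma adjusted p = 1.3e-05). SOCS1 averaged 7.47 ± 0.28 in adult RFH and 6.73 ± 0.14 in juvenile RFH (SD), and rose by 0.74 (SE 0.15, adjusted p = 0.00784). Its other probe sets, both dimmer, gave 0.48 (adjusted p = 0.0787) and -0.03 (adjusted p = 0.895), and with the mean of the 3 the call was lost (0.40, adjusted p = 0.069). The growth hormone receptor GHR averaged 7.66 in adult RFH and 7.65 in juvenile RFH.

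Of 5 imprinted growth genes measured, 1 fell, beside 7.85% of all genes. The maternally expressed non-coding RNA MEG3 read 6.66, 6.87, 7.83 and 7.65 in adult RFH and 8.71, 7.84 and 8.33 in juvenile RFH, and fell by 1.04 (SE 0.31, limma adjusted p = 0.0423). Its other probe set gave -0.82 (adjusted p = 0.215), with overlapping groups, and with the mean of both the call was lost (-0.93, adjusted p = 0.0957). The MEG3 call was also lost without adult RFH 1 or 2, juvenile RFH 1 or 3, or juvenile WT 1 or 2, at adjusted p-values of 0.0564 to 0.163. It held under 10 of 22 alternatives in all.

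For juvenile RFH minus juvenile WT, the gene with the smallest p of each list was not called by limma. The differences were 0.16 for IGFALS (adjusted p = 0.620), 0.18 for PLG (0.473), -0.32 for PDPK1 (0.241) and -0.35 for TSC1 (0.320). MAP2K2 gave 0.18 (0.515), GHR -0.33 (0.319) and NNAT -0.54 (0.326), each with its adjusted p in parentheses. IGFALS holds IGF and IGFBP3 in a circulating complex, and PDPK1 activates AKT.

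**Figure D4:**
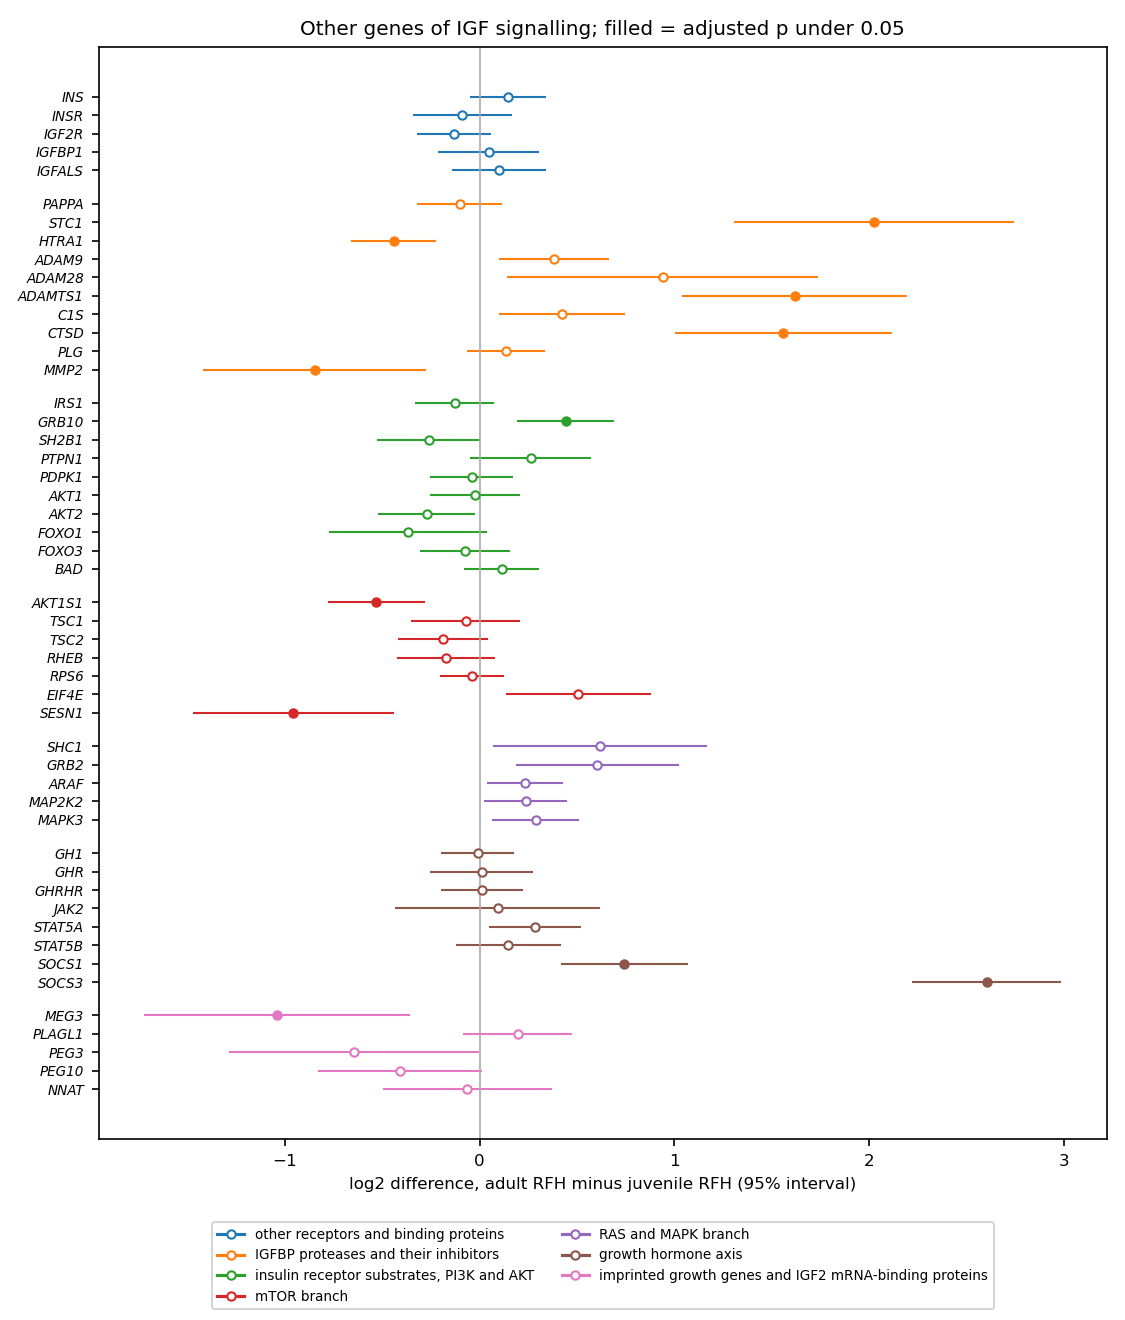
Log2 difference, adult RFH minus juvenile RFH, with its 95% interval (horizontal axis) for the 50 other IGF pathway genes, coloured by list, with filled points for adjusted p under 0.05. SOCS3 at 2.61, STC1 at 2.03, ADAMTS1 at 1.62 and CTSD at 1.56 lie farthest right, and MEG3, SESN1 and MMP2 farthest left.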

How the data were processed

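The table analysed holds log2 expression values per probe set, as deposited, for 24123 probe sets on 10 arrays. R 2.15.2 is named in the submitters' processing notes. How the values were background corrected, summarised and normalized is not given in the sources used here, and similar array medians do not show which was used. After 124 Affymetrix control probe sets were set aside, 23999 were tested. GEO's platform annotation gave 1 symbol to 10069 of them, several to 198 and none to 13732. All 10 arrays entered 1 limma fit (limma 3.58.1, R 4.3.3) with a mean per group, contrasts and empirical Bayes moderation (7 residual and 3.57 prior degrees of freedom), two-sided, with Benjamini-Hochberg adjustment over all probe sets. The fit was tested on simulated data with the same spread in all groups, so the unequal spread of these groups was not covered. List means and control probe sets were compared by exact permutation over arrays.

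The number of arrays limits precision, and p-values measure the spread between these samples, which the labels do not state to be separate animals. The IGF genes, pathway lists and marker lists were chosen with earlier results of these data known. All IGF genes were named, along with up to 3 called genes per direction and comparison of each pathway list, or its lowest-p gene where it had no call, and the 2 genes most like each IGF gene called in a comparison of the study. Deviations of same-numbered samples correlated between -0.16 and 0.19, so the numbers were not taken as pairs. Alternatives varied the normalization, filters, variance model, array weights, floor, fold threshold, probe set choice, replicate block and each array.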

Additional observations from a re-analysis of the deposited data

Results flagged for a closer look

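Of 42 probe sets looked at for an array far from the rest of the adult RFH group, 2 were marked. Chance marks about 1 in 20, so this is about the number that chance gives. For ADAMTS1, adult RFH 1 read 12.39 while the other 3 adult arrays read 13.49 to 13.55, so the gap took 0.947 of the group's range. For SESN1, adult RFH 2 read 10.39 while the others read 11.36 to 11.41, a gap of 0.952 of the range. Both exceed the critical value of Dixon's test for 4 arrays.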

How the results depend on the processing

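The number of IGF genes called between adult and juvenile RFH was 2, and became 1 with only the 2 groups compared in the fit, with a floor of 4, and with a demand for at least 2-fold. With 1 array left out it was 1 to 2, and 1 without adult RFH 2, juvenile RFH 1 or 2, or any juvenile WT array. Without adult RFH 4 IGFBP5 was called in place of IGFBP2, and without juvenile RFH 3 IGF1 was. Between juvenile RFH and juvenile WT the number was 0, and became 1 with only those 2 groups (IGFBP2, adjusted p = 0.0277) and 2 with array weights (IGFBP2, adjusted p = 0.0188, and IGF1R, adjusted p = 0.0189). For other pathway genes, 11 were called between adult and juvenile RFH. This became 7 with only the 2 groups, 5 at 2-fold, 7 with each gene's probe sets averaged, and 7 (without juvenile RFH 1) to 17 (without adult RFH 3) with 1 array left out. Between juvenile RFH and WT it became 1 (NNAT) with only the 2 groups, from 0. Between adult RFH and juvenile WT 25 were called, 7 at 2-fold, and 15 (without juvenile WT 1 or 2) to 28 with 1 array left out. Small differences that were not called changed sign. IGFBP6 in juvenile RFH minus WT was -0.0031 after quantile normalization and -0.017 after cyclic loess, and ran from -0.047 to 0.076 with 1 array left out. IGF2 in adult RFH minus WT was -0.039 with the replicate block and -0.25 in its most variable probe set, and ran from -0.039 to 0.21 with 1 array left out. IGF2 in adult minus juvenile RFH was -0.22 in that probe set, and in juvenile RFH minus WT ran from -0.24 to 0.0078 with 1 array left out. IGF1R in adult minus juvenile RFH ran from -0.095 to 0.16. The cause was not tested. With the replicate number as a block, which drops the unpaired adult RFH 4, 3 IGF genes were called between adult and juvenile RFH, IGFBP5 at -1.05 (adjusted p = 0.0115) among them.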

Other observations

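Adult RFH set against juvenile WT, where age and genotype differ together, gave 17 higher and 8 lower of the 50 other pathway genes by limma, beside 33.3% of all genes called. Of all 6765 genes, 1536 were higher and 714 lower in adult RFH. The genes below were chosen after their values were seen. Of 10 measured proteases and inhibitors 7 rose in adult RFH, STC1 by 2.37, ADAM28 by 1.54, ADAMTS1 by 1.47 and CTSD by 1.43 among them, and HTRA1 and MMP2 fell by 0.45 and 0.96. Of 5 RAS and MAPK genes 4 rose: the adaptors SHC1 by 0.91 and GRB2 by 0.93, and the kinases ARAF by 0.38 and MAP2K2 by 0.42. Of 5 imprinted growth genes 3 fell, MEG3 by 1.59, PEG3 by 1.25 and NNAT by 0.60.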
